A study of Mus musculus with 6 samples.

Results

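The mitochondrial ribosomal protein genes were examined in differentiating mouse erythroid cells in which Foxo3 had been knocked down. They were taken as all array probes, apart from control probes, whose gene name is Mrpl or Mrps followed by a digit, with pseudogene names left out. This gave 106 of 55681 probes, which read 76 of 34741 genes and unnamed features, 47 named Mrpl for the large subunit and 29 named Mrps for the small subunit. All 76 genes were tested, and the probe standing for each gene was well above background on all 6 arrays. The other 3 of the 106 probes that were too dim to keep belonged to genes with another kept probe.

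Mitochondrial ribosomes are a separate set of ribosomes inside the mitochondrial matrix. They translate the few messenger RNAs of the mitochondrial genome, which encode membrane subunits of the respiratory chain and of ATP synthase. Their ribosomal RNAs come from the mitochondrial genome, but their proteins are encoded by nuclear genes, made in the cytosol and imported. Many of these proteins have counterparts in bacterial ribosomes, and the others are specific to mitochondria. Erythroid precursors use their mitochondria for heme synthesis and clear them at the end of maturation. Foxo3 is a forkhead transcription factor that is known in erythroid cells for its part in terminal maturation and in antioxidant defence.

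The cells were G1E-ER-GATA-1, 1 mouse erythroid line that has no GATA-1 of its own and carries a GATA-1 to estrogen receptor fusion, whose activity depends on estradiol. They grew in medium with serum, erythropoietin, conditioned medium from cells that make Kit ligand, and puromycin. The groups were 3 samples given siRNA against Foxo3 and 3 given nontargeting siRNA, each electroporated at 0 h and again at 24 h. All 6 samples received β-estradiol at 24 h and were harvested at 48 h, so both groups had 24 h of GATA-1 activity, and there was no group without estradiol or without siRNA. Each RNA sample was labelled with Cy3 and hybridised to its own 1-colour Agilent array. The labels do not say whether the 3 samples of a group were separate cultures, so the spread behind each p-value may be technical only.

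Levels are given as the scaled log2 signal, which is the log2 of the background-subtracted spot signal minus the 75th percentile of that array. A fold change is the mean of the Foxo3 siRNA arrays minus the mean of the nontargeting arrays on that scale. A gene was called when limma's moderated test gave a Benjamini-Hochberg adjusted p under 0.05 over all 19246 tested features, and "rose" or "fell" is used only of called genes. Of all tested features 27.4% were called, 13.7% higher and 13.7% lower, and the median fold change was −0.15.

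Foxo3 was lower after Foxo3 siRNA by the probe designed on its RefSeq transcript. That probe read −0.47, −1.29 and −1.89 after Foxo3 siRNA against 1.20, 1.28 and 1.12 in the nontargeting samples. It missed the mark for well above background on 1 Foxo3 siRNA array. The groups did not overlap, and Foxo3 fell by 2.42 (SE 0.337, limma adjusted p = 0.0052 over all kept probes), which left 18.7% of the nontargeting level. A second probe, designed on a cDNA clone, gave 0.26 (adjusted p = 0.243), so the check of the knockdown rests on 1 probe.

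The arrays had 20343 to 37532 spots well above background, with Foxo3 siRNA replicate 3 the lowest, and no spot was saturated. All 6 lay on 1 slide, with the nontargeting arrays and Foxo3 siRNA replicate 1 in slide row 1 and Foxo3 siRNA replicates 2 and 3 in row 2. Log2 signals correlated at 0.986 to 0.994 within groups and at 0.968 to 0.981 across groups. Of 13 erythroid marker genes tested, 12 were well above background on all 6 arrays. Among these 13 markers, Tfrc (0.61) was called higher, and Hba-a2 (−0.50), Hbb-b2 (−0.58), Hbb-bs (−0.53) and Alas2 (−0.40) were called lower. Their summed linear signal was 6211 to 8461 times the 75th percentile with Foxo3 siRNA and 9370 to 10489 times with nontargeting siRNA. Markers of megakaryocytes passed the filter for 5 of 6 genes, with Itga2b (1.27) and Gp1ba (0.59) higher, and their summed signal of 38.2 to 68.4 with Foxo3 siRNA overlapped the 38.2 to 57.7 with nontargeting siRNA. Myeloid markers passed for 5 of 7 genes, none of them called, with sums of 66.4 to 73.1 against 72.5 to 115. T cell, B cell and stromal markers passed for 2 of 5, 1 of 5 and 2 of 6 genes, none of them called, with sums no higher than 5.77 on any array. The part of these shifts in the results below was not tested, and in bulk RNA a change in the share of cells of 1 type cannot be told apart from a change in RNA per cell.

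The upstream sequences of 4 of the genes that rose are shown because the members hold the motifs named below more often than promoters in general. These are the 4 largest rises among genes with 1 listed start and a match in the 250 bases before it. Each therefore shows a match by choice, and Mrpl42, the largest rise of all, held neither motif. RefSeq (build GRCm38.p6) promoter entries were found for 67 of the 76 genes, 29 of the 35 that rose, and gave 73 promoters of 300 bases, 250 before the start and 50 after it. Each line gives the 250 bases before the start, 5′ to 3′ on the strand of the gene, and capitals mark matches to an NRF1 motif (GCGC and TGCGC with 1 base of any kind between them) or an ETS motif (CCGGAAG), the kind bound by GABP. Both strands were searched, and no match of one motif can lie inside a match of the other. NRF1 and GABP are known activators of nuclear genes for mitochondrial proteins.
Mrpl45 (chr11:97315466-97315715, plus strand): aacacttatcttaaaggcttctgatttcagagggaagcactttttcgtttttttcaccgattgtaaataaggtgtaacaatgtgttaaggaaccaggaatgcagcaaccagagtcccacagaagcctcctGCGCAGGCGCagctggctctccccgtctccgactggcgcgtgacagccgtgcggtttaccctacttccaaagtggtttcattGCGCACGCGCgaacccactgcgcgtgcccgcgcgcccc
Mrpl17 (chr7:105811088-105811337, minus strand): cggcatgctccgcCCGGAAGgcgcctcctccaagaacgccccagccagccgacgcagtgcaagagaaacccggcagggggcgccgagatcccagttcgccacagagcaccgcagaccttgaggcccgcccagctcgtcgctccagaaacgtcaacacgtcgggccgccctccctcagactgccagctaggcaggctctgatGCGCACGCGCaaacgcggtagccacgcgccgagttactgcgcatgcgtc
Mrps18a (chr17:46110754-46111003, plus strand): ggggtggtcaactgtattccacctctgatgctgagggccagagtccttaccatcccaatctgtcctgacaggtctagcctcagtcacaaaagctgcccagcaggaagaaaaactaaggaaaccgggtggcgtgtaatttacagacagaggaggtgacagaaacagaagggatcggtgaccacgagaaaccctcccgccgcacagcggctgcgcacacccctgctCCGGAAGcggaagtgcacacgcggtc
Mrpl51 (chr6:125191950-125192199, plus strand): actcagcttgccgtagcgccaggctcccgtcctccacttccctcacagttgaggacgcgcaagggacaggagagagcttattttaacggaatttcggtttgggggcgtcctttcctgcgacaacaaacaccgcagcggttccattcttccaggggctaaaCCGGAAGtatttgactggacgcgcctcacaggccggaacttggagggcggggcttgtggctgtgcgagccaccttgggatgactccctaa

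Mrpl45 held a pair of NRF1 matches, at bases 120 to 111 and 38 to 29 before the start. Mrpl17 held an ETS match at bases 237 to 231 and an NRF1 match at bases 49 to 40, while Mrps18a and Mrpl51 held an ETS match at bases 26 to 20 and 90 to 84. Over the 300-base windows, the NRF1 motif was found in 12 of 73 member promoters (16.4%) and in 4.60% of all 32851 RefSeq promoters, and the ETS motif in 24 (32.9%) and in 8.86%. At least one of these was in 33 member promoters (45.2%) against 12.6% of all promoters. The genes that rose held one in 13 of 30 promoters (43.3%) and the genes not called in 20 of 43 (46.5%). In the 250 bases before the start that order was turned, with 11 of 30 (36.7%) against 14 of 43 (32.6%). Large subunit genes held a match in 21 of 46 promoters (45.7%) and small subunit genes in 12 of 27 (44.4%), and in the 250-base window in 18 of 46 (39.1%) and 7 of 27 (25.9%). The member promoters also held more CpG, with 21.5 per window against 12.4 over all promoters, and both motifs contain CpG. A FoxO motif (TGTTTAC, both strands) was found in 2 of 73 member promoters (2.74%) and in 3.65% of all promoters. These 2 belong to Mrpl40 and Mrpl44, which both rose. The motif was thus in 2 of 30 promoters of genes that rose (6.67%) and in 0 of 43 of genes not called, too few for a comparison. An E-box (CACGTG) was found in 7 member promoters (9.59%) against 7.15% of all promoters. As 3 of those 7 E-box promoters belong to Mrpl2, the count per gene was 5 of 67 (7.46%) against 8.09% of all genes. These are letter matches within a short window and say nothing about binding.

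The mitochondrial ribosomal protein genes were higher in the Foxo3 siRNA samples almost throughout, by small amounts. Of the 76 genes, 35 rose (46.1%, against 13.7% of all tested features called higher), and 0 fell, also at an unadjusted p under 0.05, where 25.1% of all features were lower. At an unadjusted p under 0.05, 51 genes were higher, against 19.1% of all features. The fold change was above 0 for 72 genes, against 39.6% of all features, and its median was 0.35, or 1.27-fold, with the middle of the family between 0.22 and 0.50. In 67 genes every Foxo3 siRNA array lay above every nontargeting array, a pattern that 22.9% of all features showed, and in 2 genes every Foxo3 siRNA array lay below, against 27.6%. The family holds no dim genes, and among the 13591 features well above background on all 6 arrays the corresponding figures were 44 of 76 members called higher against 22.9% of these features, whose median was −0.00.

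**Figure D1:**
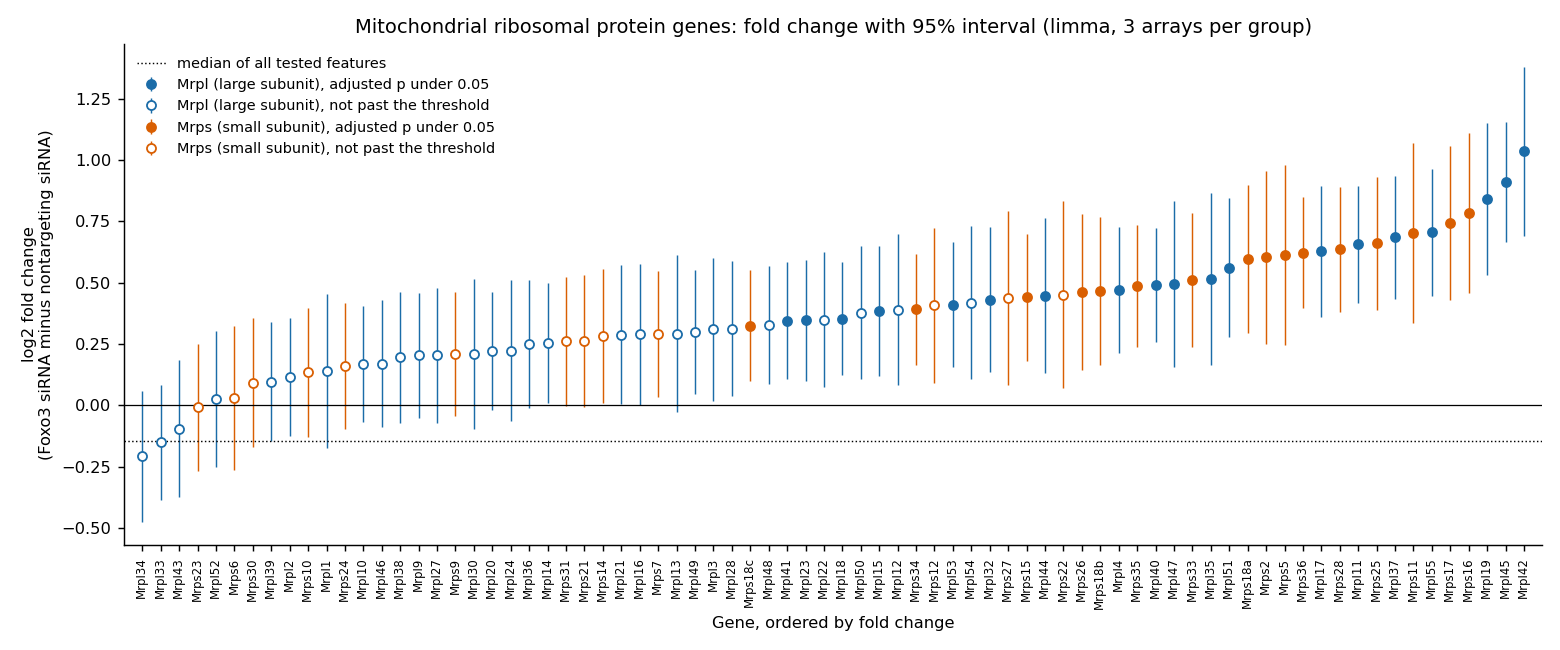
Log2 fold change (Foxo3 siRNA minus nontargeting siRNA) of each of the 76 genes in order of size, with 95% intervals from limma over 3 arrays per group; filled points have an adjusted p under 0.05, and the dotted line is the median of all tested features at −0.15. The points run from −0.21 (Mrpl34) to 1.03 (Mrpl42), 72 lie above 0, and all 35 filled points lie above 0.

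Array by array, the median deviation of the 76 genes from their nontargeting mean was 0.34, 0.37 and 0.36 on the Foxo3 siRNA arrays, against −0.08, 0.02 and 0.05 on the nontargeting arrays. All 3 Foxo3 siRNA arrays were thus above all 3 nontargeting arrays, and their own spread was narrow. The median over all tested features on the same arrays was −0.10, −0.10 and −0.18 against −0.01, 0.01 and 0.00. Foxo3 siRNA replicate 1, which shared its slide row with the nontargeting arrays, had the family at the same height as the others. Row 2 holds no nontargeting array, so a fit with slide row as a block, or on row 1 alone, estimates only the difference of this 1 array from the nontargeting arrays. That difference was above 0 in 71 of the 76 genes, with a median of 0.34. With the block 5 genes were called (4.99% of all features were called higher). On row 1 alone limma called 0 in either direction, with 18 higher and 0 lower at an unadjusted p under 0.05 (1.94% of all features were called higher). In that last fit the spread comes from the nontargeting arrays alone, and the lone Foxo3 siRNA array is assumed to vary like them.

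**Figure D2:**
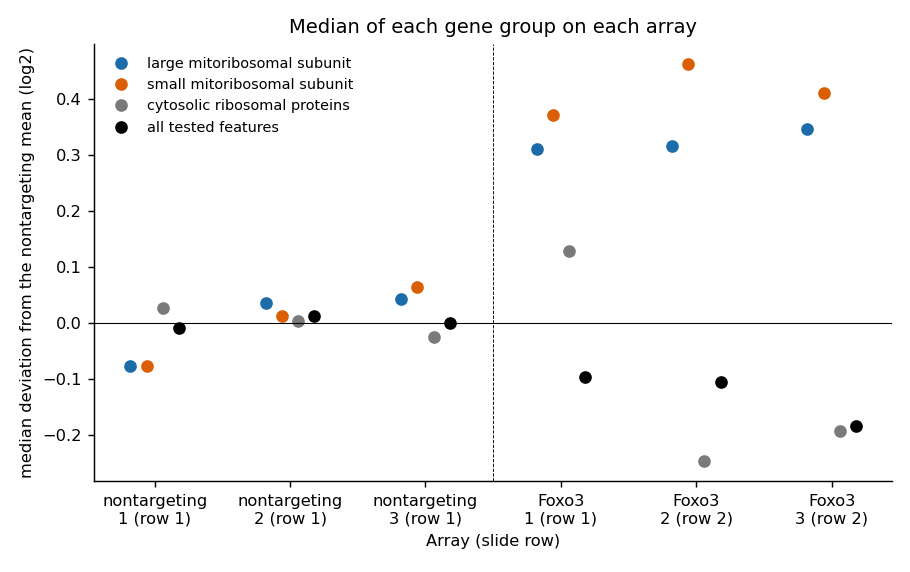
Median deviation from the nontargeting mean (log2) on each of the 6 arrays, with the slide row in brackets, for large subunit genes (n = 47), small subunit genes (n = 29), cytosolic ribosomal protein genes (n = 78) and all tested features (n = 19246). Both mitoribosomal subunits lie at 0.31 to 0.46 on the Foxo3 siRNA arrays and at −0.08 to 0.06 on the nontargeting arrays, while the cytosolic genes run from −0.25 to 0.13 on the Foxo3 siRNA arrays.

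The largest difference in the large subunit was in Mrpl42, which encodes a protein with no bacterial counterpart. The Foxo3 siRNA arrays read 0.05, 0.35 and 0.52 and the nontargeting arrays −0.77, −0.70 and −0.71 (order of replicates 1 to 3 here and below). The nontargeting arrays lay close together and the Foxo3 siRNA arrays were spread, all of them higher, and Mrpl42 rose by 1.03 (2.05-fold, SE 0.144, limma adjusted p = 0.00474). Mrpl45 encodes a protein at the exit of the nascent chain tunnel, where it holds the ribosome to the inner membrane. It read 3.49, 3.36 and 3.32 against 2.51, 2.46 and 2.47. The gap between the groups was far wider than either group, and Mrpl45 rose by 0.91 (1.88-fold, SE 0.102, adjusted p = 0.00244). Mrpl19, the counterpart of a bacterial protein at the subunit interface, read 0.49, 0.71 and 0.47 against −0.44, −0.26 and −0.15 and rose by 0.84 (1.79-fold, SE 0.129, adjusted p = 0.00646). These were the top 3 of the whole family.

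Mrpl55, the counterpart of the bacterial protein L31, read 4.51, 4.56 and 4.48 against 3.69, 3.85 and 3.90 and rose by 0.70 (adjusted p = 0.00642). Mrpl37, specific to mitochondria, read 1.10, 1.22 and 1.18 against 0.45, 0.42 and 0.58 and rose by 0.68 (adjusted p = 0.00634). In both, the Foxo3 siRNA arrays were tightly grouped and lay wholly above the nontargeting arrays. Mrpl11, a protein at the base of the stalk to which translation factors bind, read 5.43, 5.38 and 5.37 against 4.77, 4.79 and 4.66 and rose by 0.66 (adjusted p = 0.0063). Mrpl17, near the tunnel exit, read 3.07, 3.30 and 3.20 against 2.57, 2.62 and 2.50 and rose by 0.63 (adjusted p = 0.0101). Neither gene had overlapping groups, and the 7 large subunit genes described so far were called in every one of the 6 analyses that left out 1 array.

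In the small subunit the largest difference was in Mrps16, the counterpart of a bacterial protein of the body of that subunit. It read 4.89, 4.59 and 4.66 against 3.82, 3.86 and 4.11 and rose by 0.78 (1.72-fold, SE 0.136, limma adjusted p = 0.00948). The closest arrays of the groups were still clearly apart. Mrps17, also with a bacterial counterpart, read 3.83, 3.90 and 3.81 against 2.93, 3.07 and 3.32 and rose by 0.74 (adjusted p = 0.0101). Mrps11, a protein of the platform near the exit of the messenger RNA, read 1.39, 1.69 and 1.79 against 0.78, 0.87 and 1.11 and rose by 0.70 (adjusted p = 0.0201). Its lowest Foxo3 siRNA array, replicate 1, was not far above its highest nontargeting array, replicate 3. Mrps28 read 3.59, 3.60 and 3.42 against 2.86, 2.88 and 2.97 and rose by 0.63 (adjusted p = 0.00856), again without overlap. Without nontargeting replicate 2 the limma adjusted p was 0.054 for Mrps16, 0.0555 for Mrps17, 0.0515 for Mrps28 and 0.0827 for Mrps11. The call of Mrps11 was also lost without Foxo3 siRNA replicate 2 (0.0658) or 3 (0.0692) and without nontargeting replicate 1 (0.0664).

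**Figure D3:**
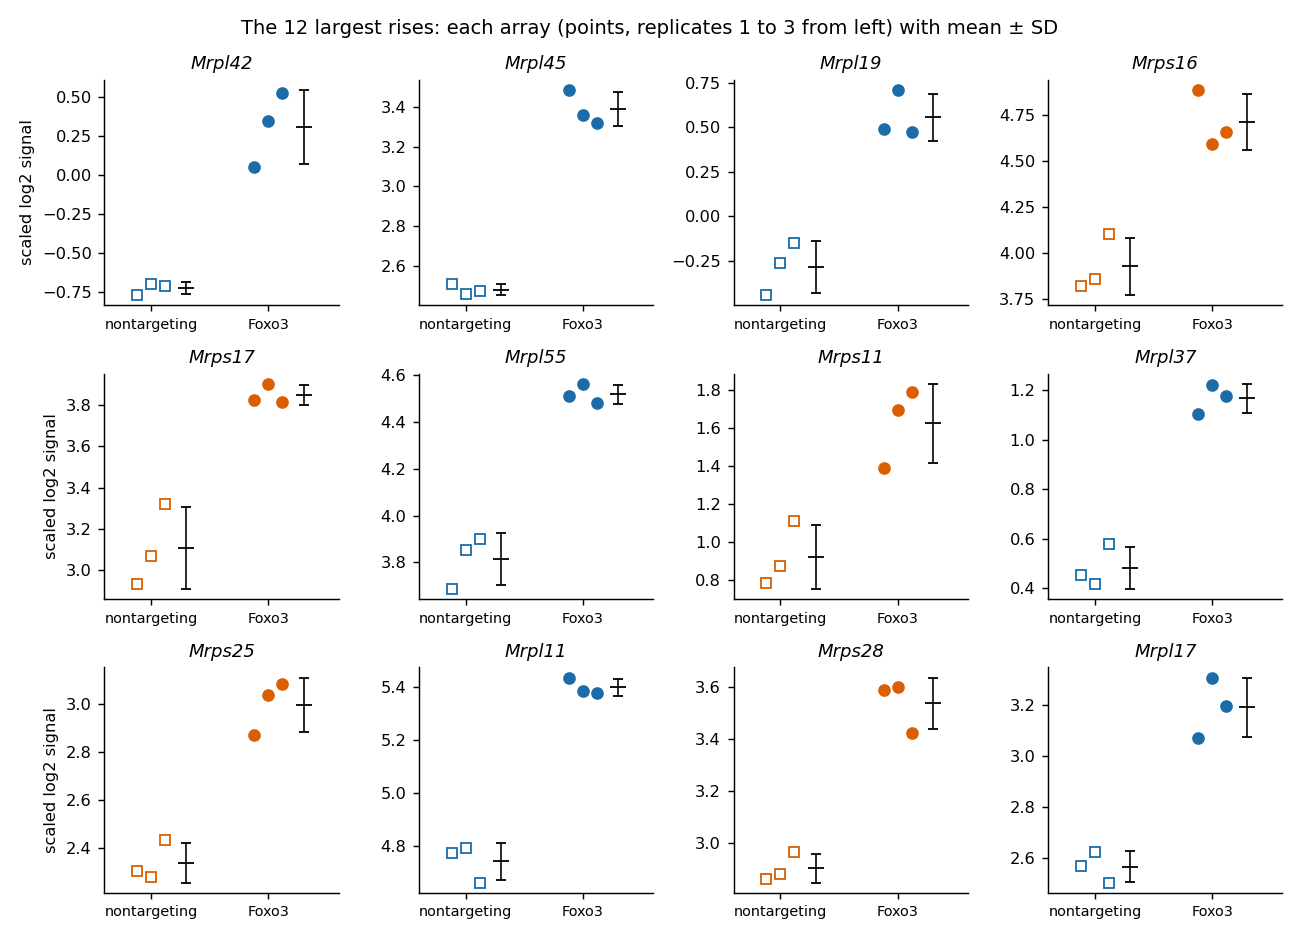
Scaled log2 signal on each array (points, replicates 1 to 3 from left) with mean ± SD (n = 3 per group) for the 12 largest rises, blue for Mrpl and orange for Mrps names; each panel has its own vertical axis, which does not start at 0. In all 12 panels the 3 Foxo3 siRNA arrays lie above the 3 nontargeting arrays, from 0.63 (Mrpl17) to 1.03 (Mrpl42) apart in the means.

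At the other end of the family, 4 genes had a fold change below 0. Mrpl34 (−0.21, SE 0.111, limma adjusted p = 0.187) and Mrpl33 (−0.15, SE 0.0972, adjusted p = 0.258) encode small proteins with bacterial counterparts and were the 2 genes whose Foxo3 siRNA arrays all lay below the nontargeting arrays. Mrpl34 read 2.86, 2.76 and 2.93 against 2.95, 3.06 and 3.16, and Mrpl33 read 6.91, 6.80 and 6.88 against 7.03, 7.01 and 7.01. Mrpl43 (−0.10) and Mrps23 (−0.01) had overlapping groups. None of the 4 passed the threshold, and Mrpl34, Mrpl33 and Mrpl43 were chosen after their values were seen. Under scaling to the array median or to the spike-in probes all 76 genes were above 0, because those scalings moved the median of all features from −0.15 to 0.16 and 0.23. These scalings add 1 constant per array to every feature, so they cannot change the distance of 0.50 between the family's median and the median of all features.

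The subunits moved in the same direction, the small subunit slightly further by its median. In the large subunit 19 of 47 genes rose (40.4%) with a median fold change of 0.33, or 1.25-fold. In the small subunit 16 of 29 rose (55.2%) with a median of 0.44, or 1.36-fold. Of all tested features 13.7% were called higher. The counts depended on the arrays. Large and small subunit genes called were 12 and 14 without Foxo3 siRNA replicate 1 (with 11.6% of all features called higher). They were 7 and 5 without replicate 2 (8.01%) and 7 and 5 without replicate 3 (8.34%). Without nontargeting replicate 1 they were 9 and 5 (8.44%), and without nontargeting replicate 3 they were 11 and 9 (9.22%). Without nontargeting replicate 2 they were 7 of 47 and 1 of 29 (6.45%). The difference of the medians, small minus large, was 0.11, and it was described without a test. On the Foxo3 siRNA arrays it was 0.06, 0.15 and 0.06, so replicate 2 gave more than the others, and on the nontargeting arrays it was −0.00, −0.02 and 0.02. Without Foxo3 siRNA replicate 2 the difference was 0.06.

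Names do not always give the subunit in which a protein lies. In known structures Mrps30 and Mrps18a lie in the large subunit, and Mrps36 is a subunit of the oxoglutarate dehydrogenase complex of the citric acid cycle. Mrps18a read 4.21, 4.36 and 4.51 against 3.64, 3.79 and 3.86 and rose by 0.60 (limma adjusted p = 0.0182). Its call was lost when Foxo3 siRNA replicate 2 or 3 or nontargeting replicate 1 or 2 was left out (adjusted p 0.056 to 0.0729). Mrps36 read 6.01, 5.98 and 5.97 against 5.35, 5.37 and 5.37 and rose by 0.62 (adjusted p = 0.0062), with little spread in either group. Mrps30 had overlapping groups, at 3.25, 3.31 and 3.18 against 3.04, 3.25 and 3.17 (0.09, adjusted p = 0.529). Regrouped by structure, 20 of 49 large subunit genes (40.8%, median 0.33) and 14 of 26 small subunit genes (53.8%, median 0.44) rose. The share called higher over all tested features was 13.7%, and the difference of the medians stayed at 0.11.

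**Figure D4:**
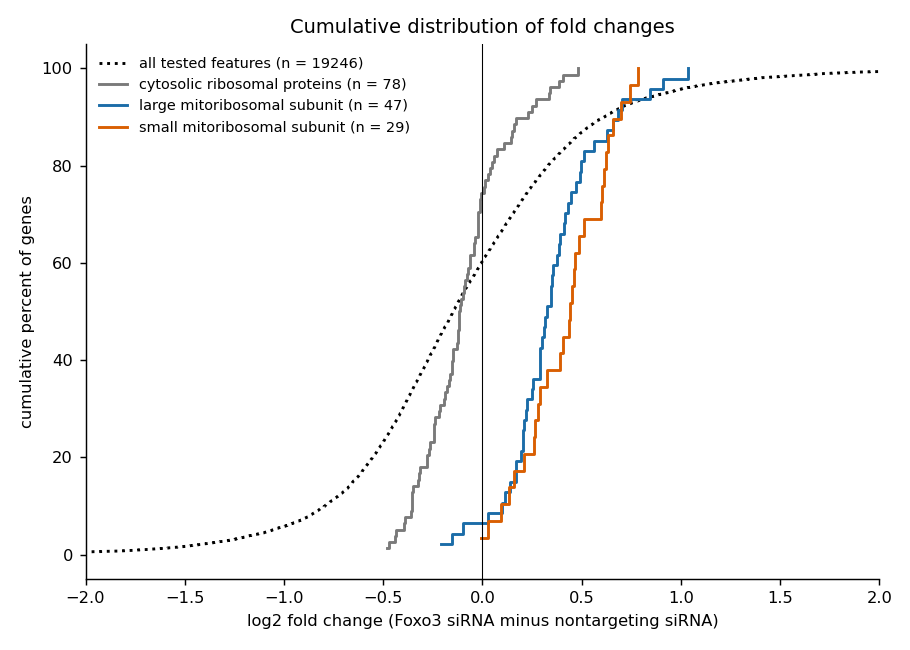
Cumulative share (percent) of genes at or below each log2 fold change for the large subunit (n = 47), the small subunit (n = 29), cytosolic ribosomal proteins (n = 78) and all tested features (n = 19246, drawn from −2 to 2). Both mitoribosomal curves lie to the right of 0 for most of their length, the small subunit further right around its median of 0.44, while the cytosolic curve is centred on −0.11.

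Proteins with a bacterial counterpart and proteins specific to mitochondria both moved. Of the genes with a bacterial counterpart 19 of 46 rose (41.3%, median 0.31), and of the mitochondria-specific genes 15 of 29 rose (51.7%, median 0.42). Of all tested features 13.7% were called higher. Within the large subunit by structure these were 11 of 30 and 9 of 19, and within the small subunit 8 of 16 and 6 of 10. In this classing Mrps18c counted as having a bacterial counterpart and Mrps18a and Mrps18b as mitochondria-specific, and all of these genes rose. By position in the ribosome, 4 of the 6 proteins at the tunnel exit rose (Mrpl17, Mrpl23, Mrpl45 and Mrpl47, median of the 6 genes 0.42). Near the peptidyl transferase centre, where peptide bonds form, 0 of 4 genes rose (Mrpl2, Mrpl3, Mrpl16 and Mrpl27, median 0.25), although 2 were higher at an unadjusted p under 0.05 and all 4 had groups that did not overlap. Of the stalk proteins Mrpl11 rose, while Mrpl12 (0.39, adjusted p = 0.0652) and Mrpl10 (0.17, adjusted p = 0.222) did not pass the threshold. Mrpl12 read 3.22, 3.41 and 3.39 against 2.77, 3.00 and 3.08, and its groups did not overlap. Mrpl32, a protein matured by the m-AAA protease, had means of 3.90 ± 0.147 against 3.47 ± 0.098 (SD, n = 3 arrays per group) and groups that did not overlap, and it rose by 0.43 (limma adjusted p = 0.0443). Its call was lost whichever array was left out (adjusted p 0.0551 to 0.132). Around messenger RNA entry and decoding 1 of 3 genes rose (Mrps5, 0.61), and on the platform of the small subunit 3 of 5 rose (Mrps11, Mrps15 and Mrps18c). Of these genes Mrpl23, Mrpl47, Mrps15 and Mrps18c were called in 0 of the 6 analyses that left out 1 array, Mrps5 in 1 and Mrps11 in 2. These position groups hold few genes and were drawn up after the values were seen.

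Several genes were read by more than 1 probe. Over single probes, adjusted over all 27038 kept probes, 37 of the 103 kept member probes were called higher (12.3% of all kept probes) and 0 lower (13% of all kept probes), and 95 were above 0. In 8 of the 24 genes with more than 1 kept probe the probes differed in call or in sign, and in 4 of these the signs were opposite. The clearest cases were Mrps25 and Mrps23, whose probes are shown by the first 30 of their 60 bases, 5′ to 3′, with the positions of the whole probe on build mm9, because probes of 1 gene gave different values. Why they differ was not tested.
Mrps25 (chr6:92124834-92124893, minus strand): atgggatgaaggccagggttgccagctgct
Mrps25 (chr6:92119530-92119589, minus strand): ctacagagattaaaatagactcgaactata
Mrps23 (chr11:88018797-88018856, plus strand): ttgcgatatggcaaagccaaagctgacatc
Mrps23 (chr11:88024940-88024999, plus strand): aacatcctgccgccctggtactgcttcctt

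The first Mrps25 probe, which stands for the gene, read 2.87, 3.04 and 3.08 against 2.30, 2.28 and 2.43 and gave 0.66 (limma adjusted p over all probes = 0.0105). The second read −0.04, −0.17 and −0.34 against −0.19, −0.19 and 0.10 and gave −0.09 (adjusted p = 0.642). The rise of Mrps25 therefore rests on 1 of its 2 probes, and without nontargeting replicate 2 its limma adjusted p was 0.054. In Mrps23 the reverse held, since the first probe gave 0.31 (adjusted p = 0.0825) without overlap of the groups, and the brighter second probe, which stands for the gene, gave −0.01 (adjusted p = 0.955). Mrpl41 gave 0.35 by its bright probe and −0.00 by a probe well above background on 5 of 6 arrays. Mrps14 gave 0.28, 0.33 and −0.05 by its 3 probes. Its 0.33 and −0.05 came from much dimmer probes, each well above background on 5 of 6 arrays. In Mrpl15, Mrpl47, Mrps18b and Mrps2 all kept probes were above 0 and differed only in whether they passed the threshold. Leaving out 1 array lost the calls of Mrpl15, Mrpl41, Mrpl47 and Mrps18b in all 6 cases and that of Mrps2 in 5. For Mrps18b the 3 probes gave 0.37, 0.46 and 0.39, and the last 2 of these overlap in position. Mrps36 gave 0.62 and 0.64 by probes that were both called.

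Mitochondrial ribosome proteins that carry other names moved the same way, with 3 of the 7 tested genes higher and 0 lower (median 0.33). That was 42.9% higher, against 13.7% of all tested features. Dap3, a GTP-binding protein of the small subunit, read 5.20, 5.15 and 5.25 against 4.23, 4.35 and 4.30 and rose by 0.91 (SE 0.1, limma adjusted p = 0.0024). Chchd1 (0.43) and Mrpl58, a peptidyl-tRNA hydrolase built into the large subunit (0.37), also rose. The call of Mrpl58 was lost whichever array was left out (adjusted p 0.0844 to 0.108), and that of Chchd1 in 5 of 6 cases (0.0603 to 0.118), while Dap3 was called in all 6. Of 28 assembly factors tested, 6 rose (21.4%, against 13.7% of all tested features) and 0 fell (median 0.23). The smallest adjusted p-values were those of Mrm1, which methylates the large subunit RNA (1.01), Mtg1, a GTPase of large subunit assembly (0.87), and Tfb1m, which methylates the small subunit RNA (0.74). Of 19 mitochondrial tRNA synthetases and related genes, 6 rose (31.6%, against the same 13.7%) and 0 fell (median 0.38). Tars2 (0.67) and Rars2 (0.64) were among those that rose. Leaving out 1 array lost the call of Tars2 in 3 of 6 cases (limma adjusted p up to 0.0676) and that of Rars2 in 5 of 6 (up to 0.0945).

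Translation factors were less uniform, with 5 of 16 higher (31.25%), 1 lower (6.25%) and a median of 0.14. Tufm, the elongation factor that brings tRNA to the ribosome (0.61), and Slirp, an RNA-binding partner of Lrpprc (0.71), rose. So did Oxa1l, which inserts new proteins into the inner membrane (0.60). The initiation factor gene Mtif2 fell by 0.55 (limma adjusted p = 0.0326). That call was near the threshold, and whether it held with 1 array left out was not looked at. Among 13 genes of mitochondrial DNA and RNA synthesis, 2 rose (15.4%) and 1 fell (7.69%), with a median of 0.20. The share that rose was near the 13.7% of all tested features called higher, and 13.7% were called lower. Twnk, the DNA helicase (0.45), and Pnpt1, an RNA-degrading enzyme (0.68), rose, while Polg, the catalytic subunit of the DNA polymerase, fell by 0.46. These 3 calls were near the threshold (limma adjusted p = 0.0247, 0.0384 and 0.0407), and leaving out 1 array lost those of Twnk and Pnpt1 in 5 of 6 cases (adjusted p up to 0.088 and 0.116) and that of Polg in all 6 (0.0554 to 0.135). Of 7 regulators of mitochondrial genes tested (median −0.06), 0 passed limma's threshold in either direction, against 27.4% of all tested features. At an unadjusted limma p under 0.05, 1 was higher and 2 were lower. These were Esrra (0.32, adjusted p = 0.0687), Gabpb1 (−0.34, adjusted p = 0.0735) and Yy1 (−0.40, adjusted p = 0.0967). Nrf1 (−0.06) and Gabpa (0.04), whose products bind the motifs shown above, had overlapping groups and were chosen after their values were seen.

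The cytosolic ribosomal proteins, which build the ribosomes of the cytoplasm, gave a different picture. Of 78 tested genes 2 rose (Rpl35a, 0.48, and Rps2, 0.41), 2 fell (Rplp0, −0.48, and Rpl37a, −0.47), and the median was −0.11. That was 2.56% in each direction, against 13.7% of all tested features. Leaving out 1 array gave 0 higher and 0 lower in 5 of 6 cases. In these cases 6.45% to 9.22% of all features were called higher and 4.3% to 8.93% lower. Without Foxo3 siRNA replicate 1 there were 1 higher and 10 lower (median −0.23). In that fit 11.6% of all features were called higher and 11.8% lower, so the 10 of 78 was near the share of all features. The sign of the cytosolic median with all 6 arrays, −0.11, depended on the scaling, at 0.19 under median scaling and 0.26 under spike-in scaling. With slide row as a block it was 0.13. On Foxo3 siRNA replicate 1 the cytosolic genes lay at 0.13 and on replicates 2 and 3 at −0.25 and −0.19. No test between the cytosolic and the mitochondrial genes was run.

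The authors' deposited table holds 133 spots of the 106 probes, of which 30 are 10 copies each of the probes of Mrpl34, Mrpl50 and Mrps35, with a median log2 fold change of 0.34 against −0.02 over all non-control spots. Of these spots in the authors' deposited table, 115 were above 0 (48.2% of all spots), and 47 were higher (9.17% of all spots) and 0 lower (9.04%) at an unadjusted p under 0.05. Without the copied probes, 95 of 103 spots in the authors' deposited table were above 0 and 39 were higher at an unadjusted p under 0.05. At an adjusted p under 0.05, 1 member spot was called in the authors' deposited table (2.27% of all spots), that of Mrpl45 (0.90, adjusted p = 0.0409).

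The number of calls depended strongly on the processing, the direction much less. Over 17 alternative settings the family was called higher in 0 to 45 genes and lower in 0, and 70 to 76 of the 76 genes were above 0. The distance of the family's median from the median of all features lay between 0.32 and 0.53, and the 2 alternative scalings by 1 constant per array could not move it. Leaving out 1 array at a time left 8 genes (without nontargeting replicate 2, with 6.45% of all features called higher) to 26 genes (without Foxo3 siRNA replicate 1, with 11.6%) called. The number was 12 without Foxo3 siRNA replicate 2 (with 8.01% of all features called higher) and 12 without replicate 3 (8.34%). Without nontargeting replicate 1 the number was 14 (8.44%), and without nontargeting replicate 3 it was 20 (9.22%). A set of 8 genes was called both with all 6 arrays and whichever array was left out (Mrpl11, Mrpl17, Mrpl19, Mrpl37, Mrpl42, Mrpl45, Mrpl55 and Mrps36). Only Mrps36 among them carries an Mrps name, and its protein is not part of the ribosome, so the set holds no small subunit gene.

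**Figure D5:**
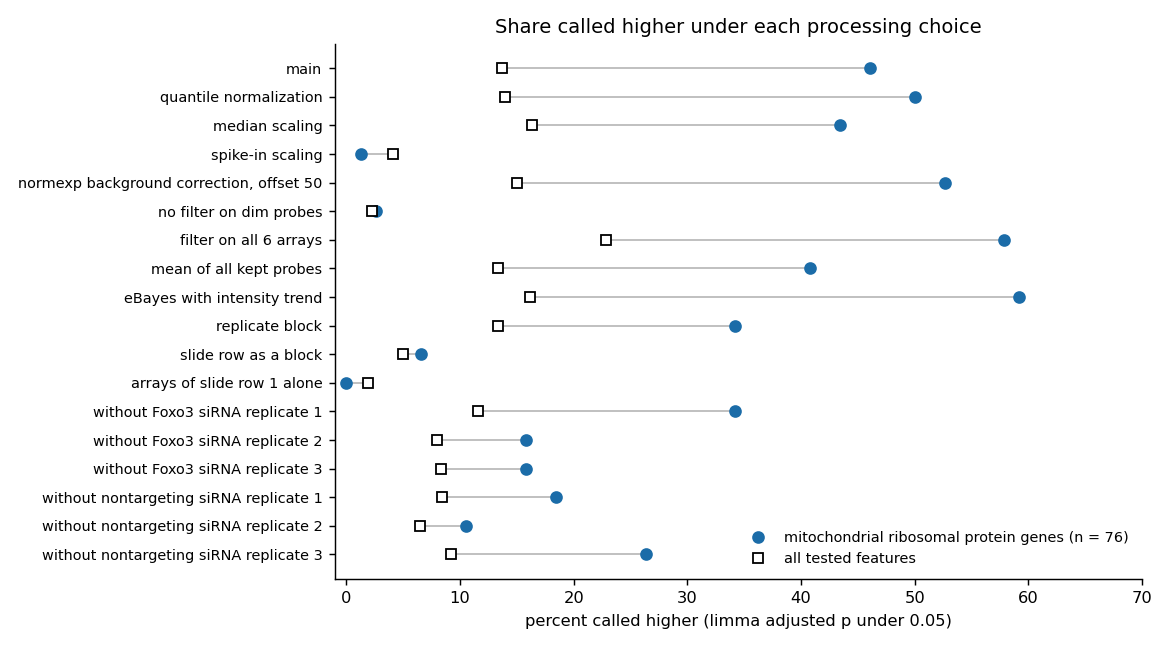
Percent of the 76 genes (filled circles) and of all tested features (open squares) called higher at a limma adjusted p under 0.05 under the processing used in the text (top line) and 17 alternatives. The members' share reaches 59.2% (intensity trend, with 16.2% of all features). It lies below the share of all features under spike-in scaling (1.32% against 4.12%) and in slide row 1 alone. The shares are close without the filter on dim probes (2.63% against 2.28%) and with slide row as a block (6.58% against 4.99%). In the other settings the members' share is the higher.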

How the data were processed

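Total RNA of 6 samples was measured on 1-colour arrays of 60-base probes. The deposited scanner files give spot intensity from Agilent Feature Extraction 10.7.3.1, background-subtracted and detrended within each array per the file headers. The authors' log2 fold change and p-value per spot come from limma per the submitters' processing notes; their normalization is not given in the sources used here.

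Control spots were left out, outlier spots set to missing, log2 intensity scaled to the 75th percentile of each array, and spots of 1 probe averaged. A probe was kept if every array of 1 group or of both read it well above background, and each gene was read by its brightest kept probe. Gene names came from the RefSeq table (27235 probes by accession, 3581 by symbol, 565 by synonym, 24300 unmatched and kept under the array's name). Groups were compared with limma 3.58.1 in R 4.3.3 (two-sided, no covariates). The script was tested on simulated data.

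The members and lists were chosen with earlier results of these data known. The rule for named genes took Foxo3, the 12 largest rises and falls among called members with groups apart, members whose probes disagree, up to 3 genes per pathway list by adjusted p, and Mrps30, Mrps18a, Mrps36, Mrpl12 and Mrpl32. A gene that met this rule is not reported here. Marker, position, homology, cytosolic and motif comparisons, and other named genes, were chosen after values were seen.

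Alternatives were other scalings, background correction with normexp (offset 50), other filters, the mean of a gene's probes, an intensity trend, replicate and slide row blocks, and leaving out each array. The number of arrays limits the precision.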

Additional observations from a re-analysis of the deposited data

How the results depend on the processing

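Counts of calls moved most. All features called numbered 5273, and 950 under spike-in scaling, 1175 without a filter on dim probes, 1526 with slide row as a block, 601 in slide row 1 alone and 2158 to 4526 when 1 array was left out. Members called higher numbered 35, and 1, 2, 5 and 8 to 26 under the same settings. Of all features 13.7% were called higher, and 4.12%, 2.28%, 4.99% and 6.45% to 11.6% under these settings. Without the filter on dim probes the members' share, 2.63%, was near that of all features, as was the 6.58% with slide row as a block. The members' median, 0.35, was 0.65 under median scaling and 0.72 under spike-in scaling; that of the large subunit, 0.33, was 0.63 and 0.70, and that of the small subunit, 0.44, was 0.74 and 0.81, while the median of all features moved equally. Large minus small, −0.11, was −0.061 with slide row as a block, −0.061 in slide row 1 alone, and −0.12 to −0.061 when 1 array was left out. No member was called lower under any of the 17 alternatives, also at an unadjusted p under 0.05.

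Signs changed in genes near 0. Mrps23, −0.01, was 0.30 under median scaling, 0.36 under spike-in scaling, 0.017 with normexp and 0.15 with the mean of its probes, and −0.054 to 0.033 when 1 array was left out (above 0 without Foxo3 siRNA replicate 1, at 0.033, and without nontargeting replicate 2, at 0.032). Gabpb1, −0.34, was 0.038 under spike-in scaling. Of the other comparisons of a named gene with an alternative, 473 kept direction and side of the threshold, 224 lost the call and 10 gained one. The cause was not tested. The spike-in probes (6 of them) deviated by −0.48 to 0.53 among the nontargeting arrays.

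The deviations of same-numbered samples correlated at 0.18, −0.33 and 0.13, and those of differently numbered samples at −0.40 to 0.32. With 3 arrays per group these correlations depend on each other, so they cannot decide whether the numbers pair the samples. With the replicate number as a block 5431 features were called, with 26 members higher (34.2%, against 13.4% of all features).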
